A study of Mus musculus with 36 samples.

Results

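Of the 2219 PAX6 peaks that lay on chromosomes 1 to 19, X and Y, 398 (17.9%, 95% Wilson interval 16.4 to 19.6) were in gene deserts. A peak was counted there when its centre was outside every protein-coding gene body and more than 100 kb from the nearest transcript start of any gene type in the GENCODE M1 annotation of the mouse genome build mm9. The 398 desert peaks came from 3 PAX6 lists, with 102 of 489 peaks in pool 1, 191 of 1018 in pool 2 and 105 of 712 in pool 3. The same rule placed 181 of 1006 peaks of the IgG control in gene deserts. No measured value entered the choice, which used position alone, so score, width, sequence and sharing between lists were not fixed by it.

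The cells were enteric precursor cells (EPCs) of CD-1 mice at P7, taken from ganglionic gut and grown in culture as neurosphere-like bodies (NLBs), aggregates that hold neural crest-derived progenitors. Chromatin was precipitated with an anti-PAX6 antibody (PAX6 ChIP) or with mouse IgG, and part of each PAX6 sample was kept as input before precipitation. Pool 1 held 4 PAX6 ChIP and 4 input libraries, pools 2 and 3 held 6 of each, and 4 IgG libraries, all labelled with pool 1, served as the negative control. No group carried a deletion or a treatment, and all came from the same strain and age. The libraries of a pool were merged before peaks were called, so each pool gave 1 list and the 3 pools were the only replicates. The lists hold positions and scores without read counts, and the paper gives reads in total only, so the depth of each pool is unknown. The lists hold no expression, so the cell label of these libraries could not be checked against marker genes here. The paper measured markers of precursor and neuronal cells in mouse NLBs, in a separate knockdown experiment.

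PAX6 is a transcription factor with a paired domain and a homeodomain, known for its roles in eye, brain and pancreas development. Gene deserts are long stretches without protein-coding genes, and many of them flank genes of development or of cell adhesion and can hold enhancers that act over long distances. Mouse intergenic DNA is also rich in microsatellites, tandem repeats of a unit of a few bases that vary in length between animals.

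Of the 5 highest desert peaks of each pool, all but the highest of pool 1 held a perfect run of such a repeat. The stretches below are read on the forward strand of mm9, and capitals mark perfect tandem runs of at least 20 bp with a unit of up to 6 bp. All runs and run lengths given here are those of mm9, and the repeat lengths in the cells themselves are unknown. The first is the desert peak of the highest score in pool 1, which had an interrupted repeat but no perfect run.
Pool 1, chr6:141057321-141057480: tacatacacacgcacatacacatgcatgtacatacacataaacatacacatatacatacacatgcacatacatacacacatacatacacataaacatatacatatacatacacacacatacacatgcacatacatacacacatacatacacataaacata

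The next 4 are desert peaks of pool 2 with a trinucleotide run, a repeat of AAC that reads as GTT on the opposite strand. The first had the highest score of all 1018 peaks of pool 2, and the last lay next to Gli2, a transcription factor of the Hedgehog pathway. Besides the AAC run, the capitals take in a run of the unit ACC in the Podxl peak and of AACAGC in the Gli2 peak.
Pool 2, between 9430031J16Rik and Irs1, chr1:81372129-81372288: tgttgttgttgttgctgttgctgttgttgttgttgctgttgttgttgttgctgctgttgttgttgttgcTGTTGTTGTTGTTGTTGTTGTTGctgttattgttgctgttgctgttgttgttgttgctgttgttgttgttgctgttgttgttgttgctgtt
Pool 2, between Podxl and 1700012A03Rik, chr6:31888108-31888267: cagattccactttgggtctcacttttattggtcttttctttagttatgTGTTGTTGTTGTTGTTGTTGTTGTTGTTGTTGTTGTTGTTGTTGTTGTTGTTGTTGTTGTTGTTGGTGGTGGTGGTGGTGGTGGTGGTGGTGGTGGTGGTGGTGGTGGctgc
Pool 2, between Myc and Gsdmc, chr15:62223063-62223278: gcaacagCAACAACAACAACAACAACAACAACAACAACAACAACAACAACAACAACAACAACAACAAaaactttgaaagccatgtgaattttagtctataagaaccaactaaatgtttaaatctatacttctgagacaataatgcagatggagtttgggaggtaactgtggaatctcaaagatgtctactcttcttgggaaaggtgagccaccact
Pool 2, between Gli2 and Inhbb, chr1:121075174-121075333: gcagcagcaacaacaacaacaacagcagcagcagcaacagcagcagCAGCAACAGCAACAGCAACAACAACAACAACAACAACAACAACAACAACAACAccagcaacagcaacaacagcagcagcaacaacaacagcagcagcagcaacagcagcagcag

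Pool 3 is shown by its highest desert peak, which overlapped an IgG peak.
Pool 3, between Gulp1 and Col3a1, chr1:45007916-45008132: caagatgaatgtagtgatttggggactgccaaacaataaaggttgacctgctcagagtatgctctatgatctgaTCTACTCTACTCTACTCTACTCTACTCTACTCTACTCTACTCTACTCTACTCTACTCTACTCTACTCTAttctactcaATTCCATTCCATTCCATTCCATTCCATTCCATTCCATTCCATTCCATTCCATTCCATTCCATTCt

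The share of peaks in gene deserts was 20.9% (17.5 to 24.7) in pool 1, 18.8% (16.5 to 21.3) in pool 2, 14.7% (12.3 to 17.5) in pool 3 and 18.0% (15.7 to 20.5) in IgG. Of the known bases of the chromosomes, 18.2% met the rule, in 2006 stretches that summed to 465 Mb, with a median of 126 kb and a longest of 2.18 Mb. Pool 1 lay above IgG, pool 2 close to it and pool 3 below it, and no pool differed from IgG at an adjusted p under 0.05. The difference from IgG was 2.87 percentage points in pool 1 (odds ratio 1.20, 95% interval 0.906 to 1.59, adjusted p = 0.400, Fisher's exact test, two-sided). It was 0.770 points in pool 2 (odds ratio 1.05, 0.835 to 1.33, adjusted p = 0.750) and -3.24 points in pool 3 (odds ratio 0.789, adjusted p = 0.305), by the same exact test.

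Among the 3 pools the difference in share did not pass the threshold at the 100 kb limit (p = 0.0152, adjusted p = 0.0911, Fisher's exact test over the 3 pools, added after the data were seen). It passed with a limit of 50 kb (adjusted p = 0.0479) or 200 kb (adjusted p = 0.0156), with protein-coding starts only (adjusted p = 0.00633) and without the peaks that overlap IgG (adjusted p = 0.0440), while among peaks with a score of 70 or more the exact p was 0.690 and among peaks with at least 50% unique 32-base words 0.269. Pool 3 against IgG passed at a limit of 50 kb alone (odds ratio 0.756, adjusted p = 0.0479, same exact test). These tests count peaks, so their p-values cover counting error within merged lists and not the spread between cultures.

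**Figure D1:**
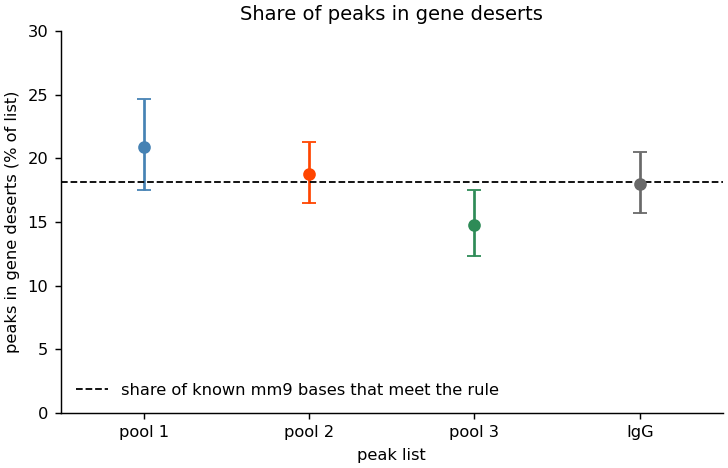
Share of peaks in gene deserts (percent of each list, vertical axis) for the 3 PAX6 pools and IgG, with points for the share and bars for the 95% Wilson interval. The dashed line is the 18.2% of known mm9 bases that meet the rule, and the shares run from 14.7% in pool 3 to 20.9% in pool 1.

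Desert peaks of different pools rarely coincided. The only desert region with overlapping peaks of 2 pools was on chromosome 15, where a peak of pool 2 and a peak of pool 3 had 320 bp in common. Its scores were 69.0 in pool 2, rank 452 of 1018, and 51.7 in pool 3, rank 695 of 712. It lay 139 kb upstream of Gm15387, between Gm7935 at 152 kb and Bai1, an adhesion G protein-coupled receptor of brain, at 283 kb. Both peaks held a CA run of 36 bp.

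Of the PAX6 peaks that overlapped no IgG peak, 2.29% were in a region of at least 2 pools. The share was 0.522% of desert peaks (2 of 383) and 2.68% of other peaks (47 of 1754), with an odds ratio of 0.196 (95% interval 0.0229 to 0.755, p = 0.00733, adjusted p = 0.0879, exact Cochran-Mantel-Haenszel test stratified by pool). A shared region enters once for each pool it joins, so the 2 desert peaks are 1 region, and because the test takes peaks as independent its p-values, those of the other settings included, are too small. The call turned on the setting, with an adjusted p of 0.000219 at a limit of 50 kb, 0.0394 when peaks within 1 kb counted as shared and 0.0268 when IgG-overlapping peaks were kept. At a limit of 200 kb and at a score of 70 or more the count of shared desert regions was 0, and among peaks with at least 50% unique 32-base words the odds ratio was 0.429 (adjusted p = 0.595, same exact test).

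With the overlapping chromosome 15 pair counted, 14 pairs of desert peaks of different pools had centres within 50 kb of each other, and 4 of these within 5 kb. The other 3 of the 4 did not overlap. Close pairs were not counted among peaks outside deserts or with IgG, so whether spacing alone gives as many was not tested. Next to Gli2 on chromosome 1 the pool 2 peak shown above and a pool 1 peak (chr1:121077868-121078342, score 54.8) had centres 2.76 kb apart. On chromosome 8 a pool 3 peak (chr8:130446625-130446892) lay 3.10 kb from a pool 1 peak (chr8:130449674-130450038), on the side of Pard3, a polarity protein. On chromosome 5 a pool 1 peak (chr5:119442944-119443627) and a pool 3 peak (chr5:119447162-119447486) lay 4.04 kb apart between Med13l and Tbx3, a T-box transcription factor of limb and heart.

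Overlap with the IgG control was not shown to differ between deserts and the rest. An IgG peak overlapped 3.7% of all PAX6 peaks, with 15 of 398 desert peaks (3.77%) and 67 of 1821 others (3.68%, odds ratio 0.992, 0.517 to 1.79, adjusted p = 1, exact Cochran-Mantel-Haenszel test). The 15 were 5 of pool 1 (4.90% of its desert peaks), 4 of pool 2 (2.09%) and 6 of pool 3 (5.71%). Of the other peaks, 8.53% overlapped IgG in pool 1, 1.57% in pool 2 and 3.46% in pool 3. All IgG libraries carry the label of pool 1, so pools 2 and 3 had no IgG control of their own. Among the 15 was the highest desert peak of pool 3, between Gulp1, an engulfment adaptor, and Col3a1, a fibrillar collagen chain, at chr1:45007916-45008132. It scored 483 in pool 3, rank 5 of 712, and the IgG peak under it scored 111, rank 20 of 1006. As printed above, it holds a 69 bp run of the unit ACTCT and then a run of the unit AATGG, which together make up 133 of its 217 bases.

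The other IgG-overlapping desert peaks of pool 1 lay between Sall3 and Galr1, where the stronger scored 105 (rank 5 of 489, chromosome 18), between Zfp516 and Tshz1, between Cntn5 and Phxr4, and between Ywhaq and Gm17680. Those of pool 2 lay between Robo2 and Lipi (score 74.1), Emx2 and Rab11fip2 (68.4), Igfbp7 and Lphn3 (68.6), and Tle3 and Rplp1 (65.3). The other 5 of pool 3 lay between Gm2574 and Lmo4 (score 121), Gm9915 and 2610017I09Rik (87.3), Olfm4 and Pcdh17 (74.4), Zfp516 and Tshz1 (63.3), and Irf2bp2 and Tomm20 (59.9). Among these flanks Sall3, Tshz1 and Emx2 encode transcription factors, Lmo4 a LIM-only cofactor and Robo2 an axon guidance receptor.

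Scores, given by the peak caller as a negative log10 p-value times 10, depend on depth and were compared only within a list. Desert peaks ran from 50.4 to 113 in pool 1 (median 60.8), from 50.7 to 509 in pool 2 (median 69.0), from 51.0 to 483 in pool 3 (median 107) and from 50.2 to 115.5 in IgG (median 67.3). Of the PAX6 desert peaks, 178 of 398 (44.7%) scored above the median of their list, as did 47.9% of the other peaks (odds ratio 0.883, adjusted p = 0.400, exact Cochran-Mantel-Haenszel test). Within IgG the shares were 54.1% and 49.1% (odds ratio 1.22, adjusted p = 0.400, Fisher's exact test).

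Desert peaks of pool 1 had a median width of 513 bp, those of pool 2 of 455 bp, those of pool 3 of 340.0 bp and those of IgG of 413 bp. A width above the list median was found for 50.8% of desert and 49.5% of other PAX6 peaks (odds ratio 1.05, adjusted p = 0.750, exact Cochran-Mantel-Haenszel test), and for 44.2% and 50.9% of IgG peaks (odds ratio 0.764, adjusted p = 0.356, Fisher's exact test). Neither score nor width set desert peaks apart from the rest of their list at an adjusted p under 0.05.

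In pool 1 the desert peak of the highest score was also the highest of the whole list, with 112.52 (chr6:141057067-141057736). It lay 140.4 kb upstream of Pde3a, a phosphodiesterase of cAMP and cGMP, and its sequence above is an interrupted repeat with no perfect run. Next came a peak 199 kb downstream of the start of Cdh26, a cadherin (score 105, rank 4), the Sall3-Galr1 peak, a peak between E130304I02Rik and Tshz3 (89.2, rank 19) and a peak between B930007M17Rik and Pdha2 (88.9, rank 22). These last 4 held CA runs of 24 to 54 bp.

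In pool 2 the leading peak scored 509 (chr1:81371925-81372446), rank 1 of the list, in the desert between 9430031J16Rik and Irs1, the insulin receptor substrate. The others of the top 5 lay between Rgmb and BC002059 (303, rank 9), Podxl and 1700012A03Rik (278, rank 11), Myc and Gsdmc (257, rank 13), and Abca13 and Vwc2 (240, rank 16). The Rgmb peak held a 43 bp CA run, and the other 4 held an AAC run of 23, 65, 60 and 43 bp, with the leading peak having the shortest.

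In pool 3 the Gulp1-Col3a1 peak was followed by 2 peaks of equal score, 247 (rank 13), both on chromosome 10. The first lay between Rap1b and Mdm1 and the second between Ifng, the gene of interferon gamma, and Dyrk2, a kinase. A peak between Tmem167 and Atp6ap1l scored 225 (rank 22) and held a 111 bp run of the unit ACACAG, and a peak between Gm2574 and Lmo4 scored 210 (209.79, rank 39) and held a 60 bp CA run. In IgG the highest desert score was 115.5, and the peak between Gulp1 and Col3a1 scored 111.

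**Figure D2:**
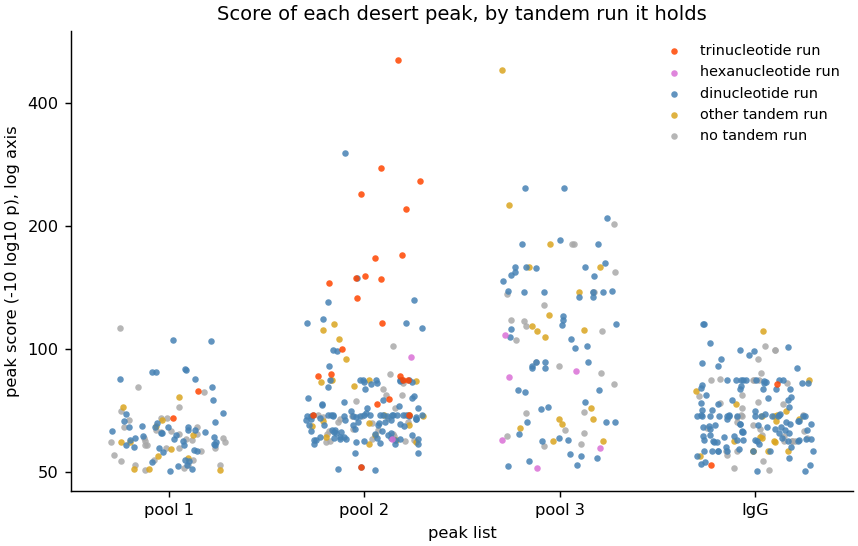
Score of each desert peak (vertical log axis, negative log10 p times 10) by list, coloured by the tandem run of at least 20 bp it holds: trinucleotide is AAC, hexanucleotide is AACCCT and dinucleotide is CA/TG, taken in that order. In pool 2 the AAC peaks lead, with 509 at the top, while scores in pool 1 stay at or below 113 and in IgG at or below 115.5.

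CA/TG runs were the most frequent of the repeat units counted. Across all peaks, 55.2% of PAX6 and 62.6% of IgG peaks held a CA/TG run of at least 20 bp. In deserts it was 223 of 398 PAX6 peaks (56.0%, 51.1 to 60.8) and 122 of 181 IgG peaks (67.4%, 60.3 to 73.8). The PAX6 share outside deserts was 55.0% (odds ratio 1.06, 0.846 to 1.33, adjusted p = 0.750, exact Cochran-Mantel-Haenszel test), and the IgG share outside deserts was 61.6% (odds ratio 1.29, adjusted p = 0.360, Fisher's exact test). By pool, 49.0%, 60.2% and 55.2% of desert peaks held such a run, beside 49.4%, 55.9% and 57.3% of the others.

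Over the central 400 bp, 54.3% of PAX6 desert peaks and 64.1% of IgG desert peaks held a CA/TG run, and 3.70% of all 1160327 desert windows of that length in mm9 did. A run of any unit was in 74.4% of PAX6 desert peaks, 74.6% of IgG desert peaks and 11.2% of desert windows. Runs of the unit AG (CT on the opposite strand) were in 56 of 398 PAX6 desert peaks (14.1%) and 161 of 1821 others (8.84%). The AG shares in deserts and elsewhere were 10.8% and 10.1% in pool 1, 15.2% and 10.2% in pool 2, 15.2% and 6.26% in pool 3, and 9.39% and 9.33% in IgG.

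AAC runs were far more frequent in pool 2 than in the other lists. They were in 24 of its 191 desert peaks (12.6%, 8.59 to 18.0), in 2 of 102 of pool 1 (1.96%, 0.539 to 6.87), in 0 of 105 of pool 3 and in 2 of 181 of IgG (1.10%). Of desert windows of mm9, 0.245% held an AAC run. The repeat kinds were picked after the values were seen, so these shares carry no test. Outside deserts the same held, with AAC runs in 95 of 827 peaks of pool 2 (11.5%), 5 of 387 of pool 1, 3 of 607 of pool 3 and 2 of 825 of IgG.

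Within pool 2 the AAC peaks scored high. The 24 desert peaks with an AAC run had a median score of 125, and the 167 without had 68.6, and 13 of the 20 highest desert peaks of the pool held an AAC run. Outside deserts the medians were 107 with and 69.0 without, and 19 of the 20 highest peaks held an AAC run. Runs of the unit AAG were also most frequent in pool 2, in 8 of 191 desert peaks (4.19%) and 3.75% of others, beside 0.552% and 0.364% in IgG. Apart from those named above, AAC peaks of pool 2 included a peak between Irx5 and Irx6, homeodomain factors (chr8:94995728-94995932, score 167, rank 34), and 2 between Gm6377 and Pou3f4, a POU factor, on chromosome X (scores 146 and 75.4). The farthest from any start was between Plod2 and 1190002N15Rik (778 kb, score 85.8). Those flanks were named after the values were seen.

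Runs of the telomere-type unit AACCCT were rarer. They were in 6 of 105 desert peaks of pool 3 (5.71%, 2.64 to 11.9), 2 of 191 of pool 2, 0 of 102 of pool 1 and 0 of 181 of IgG, and outside deserts in 6 of 607 peaks of pool 3 (0.988%), 1 of pool 2 and 1 of IgG. The 6 of pool 3 had scores from 51.0 to 108 and a median of 72.7, below the 111 of the other 99. The runs of those 6 were 49 to 80 bp long.

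**Figure D3:**
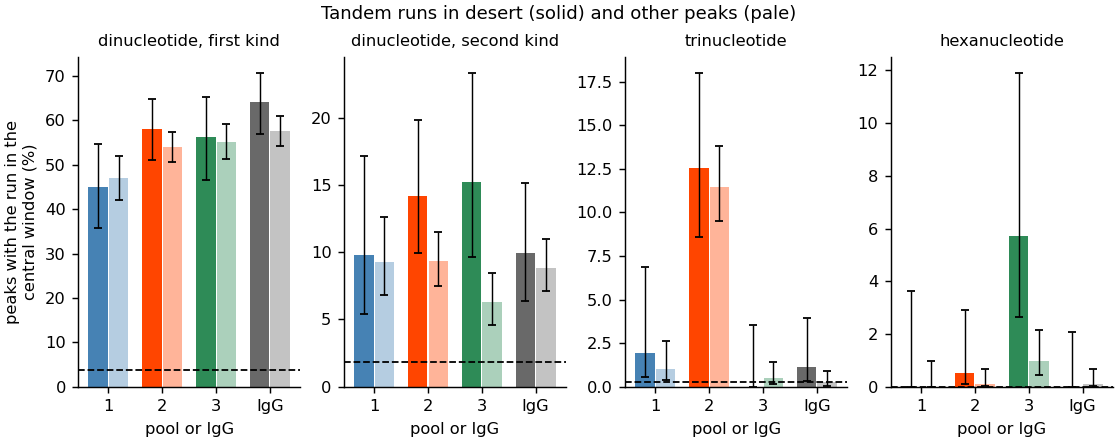
Share of peaks (percent, vertical axes of different range) with a tandem run of at least 20 bp in the central 400 bp, for runs of CA or TG, of AG, of AAC and of the telomere-type unit from left to right, in desert peaks (solid) and other peaks (pale) of pools 1, 2, 3 and IgG. Bars carry 95% Wilson intervals and dashed lines give the share of all desert windows, such as 3.70% for CA/TG and 0.245% for AAC, whose bar in pool 2 stands at 12.6%.

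Sequences that PAX6 is known to bind were in few desert peaks of any list. The paired-domain core TTCACGC, searched on both strands of the central 400 bp, was in 4 of 398 PAX6 desert peaks (1.01%, 0.392 to 2.56), 3 of 181 IgG desert peaks (1.66%), 0.604% of other PAX6 peaks and 0.489% of desert windows. Its longer form TTCACGCNTGA, which contains the core, was in none of the desert peaks of any list and in 0.00862% of windows. TAAT sites facing each other, the form homeodomain pairs bind, were in 4 PAX6 desert peaks (1.01%), 4 IgG desert peaks (2.21%), 0.384% of other PAX6 peaks and 2.15% of windows at a spacing of 2 bases (TAATNNATTA). At 3 bases (TAATNNNATTA) they were in 2 PAX6 desert peaks (0.503%), no IgG desert peak, 0.934% of other PAX6 peaks and 1.84% of windows. Of the 4 peaks with the core, 3 were of pool 1 (2.94% of its desert peaks). The stretch below, from the pool 1 peak with the highest score among them (72.3, 308 kb from the nearest start, between Svip and Luzp2), is shown with the core in capitals.
Pool 1, between Svip and Luzp2, chr7:59638845-59638911: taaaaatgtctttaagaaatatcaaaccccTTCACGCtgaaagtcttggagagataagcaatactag

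Reads from repeats can be hard to place. By counting how many 32-base words of each peak occur once in mm9, 74 of 398 PAX6 desert peaks (18.6%) had under 50% unique words, beside 417 of 1821 other PAX6 peaks (22.9%) and 27 of 181 IgG desert peaks (14.9%). By pool the counts were 19 of 102, 27 of 191 and 28 of 105 (26.7%), the last beside 36.6% of the other peaks of pool 3. The 5 highest desert peaks had 64.5% to 97.1% unique words in pool 1, 51.3% to 89.9% in pool 2 and 24.4% to 74.3% in pool 3, where the ACACAG peak near Atp6ap1l was the lowest. GC content had a median of 38.9% in pool 1, 40.8% in pool 2, 43.1% in pool 3 and 41.3% in IgG, and desert windows averaged 39.1%.

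The median distance of desert peaks to the nearest transcript start was 218 kb for pool 1, 183 kb for pool 2, 170.4 kb for pool 3 and 204 kb for IgG. Of the PAX6 desert peaks 52.5% were at 100 to 200 kb, 35.9% at 200 to 400 kb and 11.6% beyond, and desert bases split 50.6%, 33.9% and 15.5%. In pool 1, 42.2% were at 100 to 200 kb (33.0 to 51.9), and in pool 3 59.0% (49.5 to 68.0), so those intervals overlap. The nearest start belonged to a protein-coding gene for 173 of 398 (43.5%) and to small RNA genes, pseudogenes or other types for the rest. The peaks were upstream of that start in 185 cases (46.5%, 41.6 to 51.4).

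The farthest PAX6 peak, of pool 3, was 956 kb from any start, between Nmbr, a bombesin-type receptor, and Cited2, a transcriptional coregulator (chr10:15880073-15880550, score 59.5). Then came a pool 1 peak at 910 kb (909.738) between Khdrbs3 and Fam135b, a pool 2 peak at 871 kb between Ctnna3, a catenin, and Reep3, and a pool 3 peak at 810 kb (810.296) between Pcdh17, a protocadherin, and Diap3, a formin. The last of these 4 scored 159 (rank 89 of 712). At the limit of the rule, the members just inside were 100.07 kb from Lifr (pool 3, score 59.5) and 100.24 kb from Slc16a7 (pool 2, 61.3), and the peaks just outside were 99.7 kb from Gm8882 (pool 1, 84.2) and 99.5 kb from Il20rb (pool 3, 114). Outside coding genes there were 30 PAX6 peaks from 90 to 100 kb, and 36 from 100 to 110 kb.

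**Figure D4:**
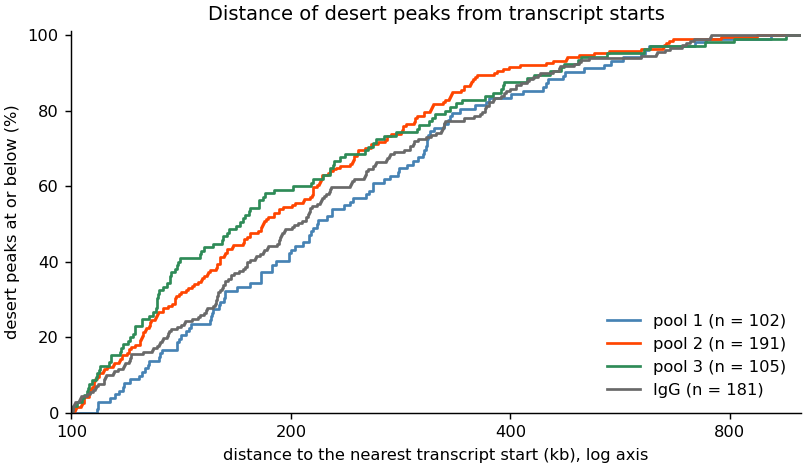
Cumulative share of desert peaks (percent, vertical axis) by distance to the nearest transcript start (kb, log axis) for the 3 pools and IgG. The lines of pool 3 (median 170.4 kb) and pool 2 rise first and that of pool 1 (median 218 kb) last, with IgG between them.

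Of the 2006 desert stretches, 328 held a PAX6 peak, and 55 of these also held an IgG peak. Peaks of 1 pool were in 292 stretches, of 2 pools in 31 and of all 3 pools in 5. IgG peaks were in 9 of those 31 and in 1 of those 5. The median length was 0.102 Mb for the 1678 stretches without a PAX6 peak, 0.356 Mb for those of 1 pool, 0.667 Mb for those of 2 and 0.558 Mb for those of 3. Per 10 Mb there were 8.42 PAX6 peaks in stretches under 0.2 Mb, 9.08 at 0.2 to 1 Mb and 7.01 in longer ones, and 4.05, 3.87 and 3.80 IgG peaks.

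The most PAX6 peaks, 4 each, were in 2 stretches of chromosome 8. That between Gm17316 and Cdh11, a cadherin of mesenchyme, held 2 peaks of pool 1 (scores 67.1 and 57.2), 1 of pool 2 (69.0) and 1 of pool 3 (151), plus an IgG peak (68.8). That between Pard3 and Gm17350 held 2 of pool 1 (63.0 and 53.4), 1 of pool 2 (83.6) and 1 of pool 3 (54.1) and no IgG peak. In both, every pool had a peak and none overlapped.

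Another 8 stretches tied at 3 PAX6 peaks. Those with a peak of each pool lay between Hace1 and Grik2, a kainate receptor subunit (scores 57.4, 55.8 and 138 in pools 1 to 3), between Rorb, a nuclear receptor, and Anxa1 (59.6, 65.3 and 79.4), and between Med13l and Tbx3 (50.8, 68.6 and 128). The others were flanked by 4930555F03Rik and Aga, Robo2 and Lipi, Plcl1 and Hsfy2, Veph1 and Shox2, and Gm17295 and Apob. The Robo2 stretch was the only one of these 8 with an IgG peak.

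**Figure D5:**
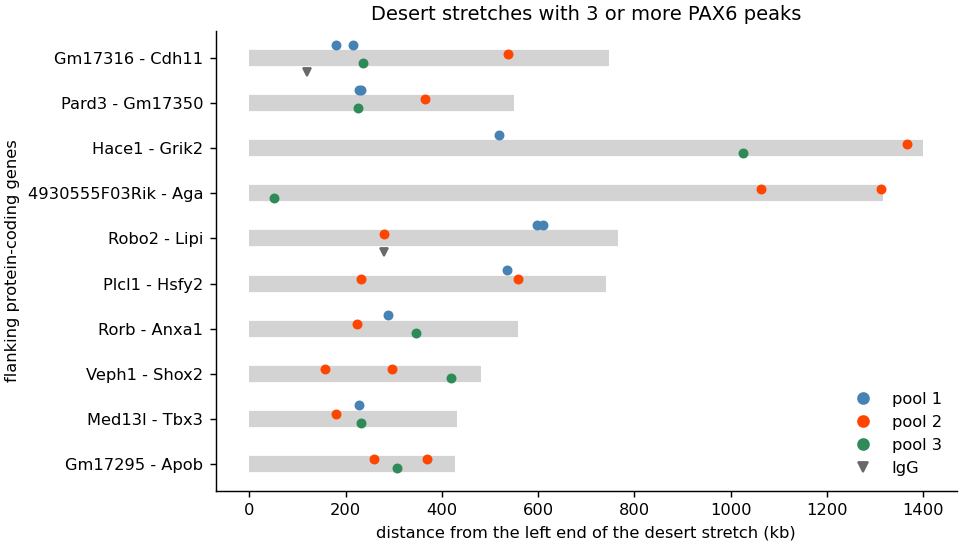
The 10 desert stretches with at least 3 PAX6 peaks, each a grey bar with the distance in kb from its left end on the horizontal axis, named by the flanking protein-coding genes. Circles are PAX6 peaks of pools 1 to 3 and triangles IgG peaks, offset vertically by list, and IgG peaks are in the Cdh11 and Robo2 stretches.

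The genes next to desert peaks were described by 6 families. Genes of adhesion and synapse, such as cadherins, protocadherins and contactins, flanked 55 of 398 PAX6 peaks (13.8%) and 26 of 181 IgG peaks (14.4%). Of desert bases, 17.8% lay in stretches with such a gene as the nearest protein-coding one on a side, even where noncoding genes lay between. By pool the share of PAX6 desert peaks was 18.6%, 13.6% and 9.52%. The 34 genes included Cdh11 and Cntnap5b, a contactin-associated protein, in all 3 pools. Those in 2 pools were Cdh6, Cdh9, Cdh20, Cadm1, Cadm2, Cntn5, Cntnap5a, Lsamp, Nxph1, Pcdh7, Pcdh10 and Pcdh17. All of these but Cadm2, Lsamp and Nxph1 also flanked IgG desert peaks. Cntnap5b and Cdh20 flanked 3 each, Pcdh7 and Pcdh17 flanked 2 each, and Cdh11, Cdh6, Cdh9, Cadm1, Cntn5, Cntnap5a and Pcdh10 flanked 1 each.

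Axon guidance genes flanked 23 PAX6 peaks (5.78%), 10 IgG peaks (5.52%) and 4.98% of desert bases. The ephrin receptors Epha3, Epha4 and Epha7, and Efna5, Efnb2, Robo1, Robo2 and Unc5d, were in 2 pools each. Channels and transmitter receptors flanked 28 (7.04%), 10 (5.52%) and 6.39%, with Grik2 in all 3 pools. Developmental transcription factors flanked 26 (6.53%), 12 (6.63%) and 6.58%, with Tbx3 and Rorb in all 3 pools and Sall3 and Tshz1 in 2. Olfactory and vomeronasal receptors, a large family of clustered genes, flanked 2 PAX6 peaks, no IgG peak and 0.262% of desert bases. Robo1, Robo2, Efnb2 and Unc5d each also flanked 1 IgG desert peak, Sall3 flanked 4 and Tshz1 flanked 3. Epha3, Epha4, Epha7, Efna5, Grik2, Tbx3 and Rorb flanked none. These family shares are descriptions and were not tested.

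Of the 44 genes of the enteric neural crest list, 17 were the nearest protein-coding gene on a side of a desert stretch. Of those, 3 were next to a PAX6 desert peak, beside 552 of all 2450 genes nearest to a stretch in this way. Genes of the list flanked 4 of 398 PAX6 desert peaks (1.01%) and no IgG desert peak. Of desert bases, 1.53% lay in stretches with a gene of the list nearest on a side. Gli2 flanked peaks of pools 1 and 2, at 128 and 125 kb upstream of its start, with scores of 54.8 and 151. The pool 1 peak held a 59 bp run of the unit ACACGC and the pool 2 peak the AAC and AACAGC runs shown above. Gli3, another Hedgehog effector, flanked a pool 3 peak 120 kb (119.719) upstream of its start (chr13:15435214-15435485), with a score of 54.6, rank 672 of 712, and a 33 bp CA run. Hand2, a basic helix-loop-helix factor needed for enteric neurons, flanked a pool 2 peak 629 kb away, nearer to Fbxo8 (chr8:59170993-59171330), with a score of 69.0 and a 38 bp CA run.

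Chromosome X, with 2.67% of desert bases, held 3 desert peaks of pool 1, 4 of pool 2, 0 of pool 3 and 1 of IgG. That is 5.65 PAX6 peaks per 10 Mb of desert on X and 8.66 on the autosomes, and 0.807 and 3.99 IgG peaks. Chromosome Y held no desert peak of any list. Over all peaks, chromosome X held 5.11% of pool 1, 2.75% of pool 2, 0.421% of pool 3 and 2.39% of IgG. So peaks on X were rare in pool 3 as a whole (3 of 712) and not in its deserts alone.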

How the data were processed

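PAX6 ChIP-seq was carried out on EPCs, with input and IgG controls. Per the labels, Bowtie and mm9 were used by the authors, whose deposited lists give MACS peaks of merged libraries, 1 list per pool, with a score that is a negative log10 p times 10. Versions and settings were not given in the sources used here, and the depth of each pool is unknown. The members, gene families and tests were chosen with earlier results of these data known. Starts were counted from 0 in the files and are printed from 1. Some sequences and the flanking genes of 2 of the IgG peaks that the naming rule covers are not reported here. Peaks on sequences outside chromosomes 1 to 19, X and Y were left out.

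From the lists, distances, flanking genes, tandem runs, motifs and unique 32-base words were computed on mm9 (GENCODE M1) with Python 3.11.15 and pysam 0.24.0. The desert rule, tandem runs, overlaps and the exact Cochran-Mantel-Haenszel test were checked on simulated data, the other steps not. Fisher's exact test and the exact Cochran-Mantel-Haenszel test were run in R 4.3.3, with Benjamini-Hochberg adjustment over 12 tests. Intervals of shares are Wilson 95% intervals and those of odds ratios are the 95% intervals of the exact tests. Both cover counting error only. Genes named are the nearest protein-coding genes on each side of the shared region, of the 5 top desert peaks of each pool and the 3 of IgG, of IgG-overlapping peaks, of the 5 farthest peaks, of the 5 stretches with most PAX6 peaks (ties included) and of peaks at the limit, and the enteric neural crest genes next to a peak. Genes next to AAC, motif-bearing or close pairs of peaks, and family members, were named after their values were seen. Alternatives covered the distance limit, gene types, score, run length, overlap and pools.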

Additional observations from a re-analysis of the deposited data

Results flagged for a closer look

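Peaks on unplaced sequences entered no comparison. There were 2 such peaks of 491 in pool 1, 14 of 1032 in pool 2, 12 of 724 in pool 3 and 1 of 1007 in IgG. Each pool was flagged because these peaks were left unanalysed. They have no place on a chromosome, so whether they lie in gene deserts was not tested.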

How the results depend on the processing

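No paired analysis was possible because the deposited lists hold the merged libraries of each pool and carry no replicate numbers. Of 109 recomputed values, 81 kept their direction and side of the threshold or their range. The pooled desert share was 28.8% at 50 kb, 8.52% at 200 kb, 28.9% with protein-coding starts and 16.3% at a score of 70 or more, and 17.1% to 19.4% without each pool. Shared desert regions numbered 0 at 200 kb and at a score of 70 or more, and 0 to 1 without each pool (0 without pool 2 or pool 3).

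Odds ratios crossed 1, with no adjusted p under 0.05, for pool 1 (0.760) and pool 2 (0.741) against IgG and for CA/TG runs (0.984) at a score of 70 or more. So did pool 2 against IgG (0.917) and score (1.01) at 200 kb, CA/TG runs of 16 bp (0.989), and IgG overlap at 50% of both peaks (1.06) or with at least 50% unique words (1.24), the last setting chosen after the data were seen. Without each pool the ratio ran from 0.95 to 1.12 for CA/TG runs, 0.868 to 1.25 for width and 0.761 to 1.53 for IgG overlap, crossing 1 without pool 2, pool 2 and pool 1. For CA/TG runs of at least 30 bp it was 1.28 in PAX6 peaks (1.02 to 1.60, adjusted p = 0.114, exact Cochran-Mantel-Haenszel test). In IgG peaks the ratio for such runs was 1.34 (0.962 to 1.88, adjusted p = 0.201, Fisher's exact test).

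The adjusted p fell under 0.05 for sharing between pools, with odds ratios of 0.104 (50 kb), 0.175 (within 1 kb) and 0.167 (IgG-overlapping peaks kept), but the range without each pool was 0 to 0.355, with adjusted p from 0.334 to 0.558, and linked peaks of a shared region make these p-values too small. It also fell under 0.05 for pool 3 against IgG at 50 kb (0.756), for IgG widths above the upper quartile (0.576), and among the 3 pools, with p of 0.00993 (50 kb), 0.00130 (200 kb), 0.000527 (protein-coding starts) and 0.00641 (without IgG overlap). The causes were not tested. The depth of each pool is unknown, and 3 merged pools limit every comparison.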
